A study of Mus musculus with 36 samples.

Results

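The interferon-stimulated genes described here are 37 genes that interferons induce, together with the transcription factors that drive them. They were selected by gene symbol from the 24421 genes of each count file, and all 37 had a count in some library. RNA was sequenced from sorted aortic macrophages, monocytes and peritoneal macrophages of Apoe ko mice, which lack apolipoprotein E and accumulate cholesterol-rich lipoproteins. Every mouse in every group carried this knockout, so none of the groups is a normolipidaemic wild type. The baseline groups received chow diet, the early groups 1 month and the advanced groups 6 months of high cholesterol diet. Each of the 9 groups has 4 libraries, which makes 36. Aortic cells came from whole aortas digested with collagenase, monocytes from red-cell-lysed blood and spleen, and peritoneal cells from lavage. The question is how regulation of these cells shifts with the onset and growth of atheroma. Nothing in the labels ties a library to its own animal, and the p-values therefore cover only the spread seen between libraries, which may be technical. Mouse strain beyond the knockout, sex, age and the sorting markers are not given in the sources used here.

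Type I interferons bind the receptor subunits IFNAR1 and IFNAR2, and the attached kinases JAK1 and TYK2 activate STAT proteins. STAT2 joins IRF9 in a complex that binds the interferon-stimulated response element in the promoters of its target genes, many of which encode antiviral proteins. Myeloid cells keep a low tonic level of this programme without infection, and macrophages with an interferon-inducible profile are known from mouse atherosclerotic aortas.

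Promoter letters are shown for 6 members named in the results, picked from those that held a match to the response element. RefSeq (GRCm38.p6) gave a start site for 28 of the 37 members, and the 250 bases before each start were searched on both strands for GAAA, any 2 bases and GAAA again, the core of the response element, counting a gene if any of its listed starts held it. It was found in 12 of the 28 members (42.9%), beside 3.46% of 27025 genes in the table. Ifit2, Irf7 and Samhd1, also named in the results, had no match in these bases, and Ifi27l2a had no start there. TTCNNNGAA, the core of the interferon-gamma activated sequence, was in 8 of the 28 (28.6%), beside 8.13% of all genes. Capitals mark each match to the response element, overlapping ones as 1 run, and a gene read on the opposite strand of the element shows its reverse complement. Each line runs 5′ to 3′ on the gene's strand and ends at the base before the start. Ifit3 (chr19:34583368-34583528, plus strand), Rsad2 (chr12:26456453-26456577, minus strand) and Isg15 (chr4:156200819-156200918, minus strand) are among the members lowest in peritoneal macrophages, Gbp7 (chr3:142530236-142530335, plus strand) was higher there, and Bst2 (chr8:71537473-71537607, minus strand) and Stat2 (chr10:128270271-128270497, plus strand) changed with stage in monocytes.
Ifit3: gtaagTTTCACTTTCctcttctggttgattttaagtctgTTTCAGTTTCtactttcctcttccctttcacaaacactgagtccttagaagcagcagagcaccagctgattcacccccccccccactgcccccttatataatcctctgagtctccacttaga
Rsad2: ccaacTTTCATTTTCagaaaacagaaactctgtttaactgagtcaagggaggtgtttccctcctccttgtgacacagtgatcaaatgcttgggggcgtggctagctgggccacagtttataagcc
Isg15: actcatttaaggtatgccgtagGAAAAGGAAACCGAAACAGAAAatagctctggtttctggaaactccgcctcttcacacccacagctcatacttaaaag
Gbp7: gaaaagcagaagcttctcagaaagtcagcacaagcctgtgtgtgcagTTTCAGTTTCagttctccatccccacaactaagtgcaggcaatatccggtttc
Bst2: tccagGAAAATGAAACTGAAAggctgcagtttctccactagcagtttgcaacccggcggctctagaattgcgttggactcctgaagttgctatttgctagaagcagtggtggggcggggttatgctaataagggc
Stat2: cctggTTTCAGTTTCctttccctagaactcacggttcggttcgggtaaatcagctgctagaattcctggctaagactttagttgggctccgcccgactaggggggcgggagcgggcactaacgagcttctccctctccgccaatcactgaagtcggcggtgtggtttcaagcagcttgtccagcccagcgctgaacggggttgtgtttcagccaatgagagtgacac
Isg15 had 3 matches, Ifit3 and Bst2 had 2, and Rsad2, Gbp7 and Stat2 had 1. A match describes these letters and does not show that a factor binds there.

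Totals ran from 0.943 to 14.8 M counts per library. The 12 baseline libraries held 5.28 to 14.8 M and the other 24 held 0.943 to 2.63 M, so stage and depth cannot be told apart in comparisons with baseline. The spread between libraries of a group, as edgeR's biological coefficient of variation, was 19.1% in monocytes, 21.2% in peritoneal macrophages and 110% in aortic macrophages. Levels are CPM, the count of a gene per M counts of its library. Counts in every library were found for 22 of the 37 members, while each aortic baseline library detected only 28 to 34 of them. Summed over its list, the large peritoneal macrophage markers reached 6308 to 23776 CPM in the peritoneal libraries and at most 644 elsewhere, the classical monocyte markers 3387 to 8982 CPM in monocytes and at most 1618 elsewhere, and the LYVE1 arterial macrophage markers 11571 to 20100 CPM in the aorta and at most 5921 elsewhere. Several libraries stood apart from their group before any result on the members: aortic baseline 3 and 4, aortic advanced 1, monocyte advanced 3 and peritoneal early 1 and 2. Monocyte advanced 3 held 40250 CPM of neutrophil markers, beside 5218 to 14786 in the other 3 of its group. Peritoneal early 1 and 2 held 11122 and 6308 CPM of large peritoneal macrophage markers, beside 15521 CPM or more in the other 10, and 1427 and 1618 CPM of classical monocyte markers. In bulk samples such as these, fewer cells of a type and less RNA per cell cannot be told apart.

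Interferon transcripts themselves were scarce. Of 13 interferon genes searched, 10 had no count in any library, including all 7 of the interferon alpha genes listed. With 0 counts over the 12 libraries of a population, a pooled level of up to 0.0616 CPM for aortic, 0.0503 for monocyte and 0.0492 for peritoneal libraries remains possible, for counting error only. Ifnb1, which encodes interferon beta, had 415 counts in 7 of 12 aortic libraries. They were 315 in baseline 4, 17, 9 and 37 in early 1, 2 and 4, and 3, 22 and 12 in advanced 2, 3 and 4. A single count was seen in monocytes, in early 1, and 7 in peritoneal macrophages, all in early 2. Ifng, which encodes interferon gamma, had 71 counts, all in monocytes, 42 of them in early 2. That library also held 1047 CPM of T or NK cell markers (8 genes, all detected in early monocytes), the highest of a group spanning 59.2 to 1047 CPM, and baseline and advanced monocytes held 45.6 CPM or less. Their part in the Ifng counts was not tested. Ifnk had 1 count in monocytes and 1 in the peritoneum.

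Averaged together, the members were highest in monocytes. Their mean level, as log2(CPM + 1) averaged over the 37 genes, was 6.56 ± 0.328, 6.69 ± 0.163 and 6.49 ± 0.250 (SD, n = 4) in baseline, early and advanced monocytes. In aortic macrophages it was 4.88 ± 0.289, 5.73 ± 0.271 and 5.61 ± 0.274, and in peritoneal macrophages 4.79 ± 0.517, 5.05 ± 0.611 and 5.34 ± 0.476. No monocyte library lay below any aortic or peritoneal library, while the aortic and peritoneal libraries overlapped. The lowest monocyte library was baseline 4 at 6.08 and the highest library elsewhere was peritoneal advanced 2 at 6.04. Together the members took a median of 0.736% of the counts in monocytes, 0.375% in aortic macrophages and 0.275% in peritoneal macrophages. By aortic group the share averaged 0.382%, 0.407% and 0.339% in baseline, early and advanced libraries. An undetected member enters the mean level as 0, and those groups detected 31.25, 36.5 and 36 of the members on average. By edgeR the median log2 fold change of the members in the aorta was 0.295 for early and 0.005 for advanced against baseline.

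**Figure D1:**
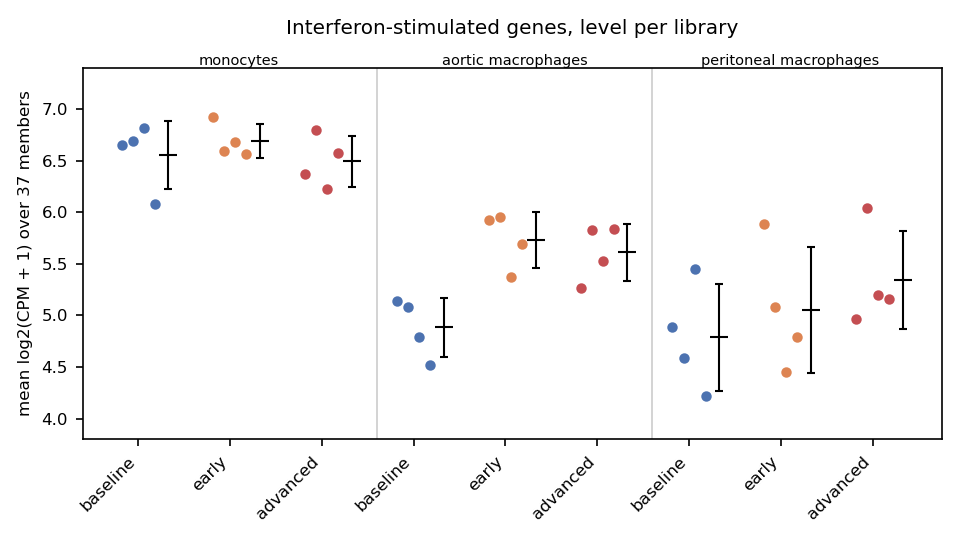
Mean log2(CPM + 1) over the 37 members, 1 point per library, by population and stage, with bars for the group mean and SD over 4 libraries. Monocyte libraries sit between 6.08 and 6.92, and the peritoneal libraries spread most, from 4.22 to 6.04.

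Compared per length of transcript, a single small membrane protein led each population. Ifitm3, which blocks the fusion of enveloped viruses, averaged 1464 CPM per kb of exon in monocytes, 855 in peritoneal macrophages and 480 in aortic macrophages (12 libraries each). Ifi27l2a, a short interferon-induced protein of the ISG12 family, came next in all 3, at 337, 136 and 308 CPM per kb in the same order. Samhd1, which degrades deoxynucleotides, came next in monocytes at 214 CPM per kb. Trim30a, a TRIM family protein, followed Ifi27l2a in the aorta at 72.3 and in the peritoneum at 55.1. Aligned reads shared by near-identical copies make the levels of Ifit3, Oas1a, Ifi27l2a, Ifitm3, Trim30a and the Gbp genes uncertain, since how such reads were assigned is not given in the sources used here.

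Peritoneal macrophages held less of nearly the whole family than monocytes. Averaged over the 3 stages, 32 of 37 members were lower and 2 higher in the peritoneum by edgeR's quasi-likelihood test (Benjamini-Hochberg adjusted p under 0.05), where 34.6% of the 10343 genes tested were lower and 32.5% higher. The median log2 fold change was -1.23 over the members and -0.02 over all genes tested. The IFIT family, whose proteins bind viral RNA ends, differed most. Ifit2 (chr19:34550694-34576419, mm10) stood at 86.8, 79, 84.1 and 58.4 CPM in baseline monocytes, 119, 78.4, 72.4 and 82.8 in early and 43, 113, 54.6 and 71.9 in advanced. In peritoneal macrophages it stood at 0.761, 0.432, 1.27 and 0.489, then 0.971, 13.3, 0 and 1.06, then 0, 4.80, 1.63 and 1.36 CPM. No peritoneal library reached the lowest monocyte library, and its log2 difference was -5.18 ± 0.30 (SE), adjusted p = 1.31e-13. Ifit3 (chr19:34583531-34588731) and Ifit1 (chr19:34640871-34650009), which lie beside it on chromosome 19, differed by -3.30 ± 0.32 (adjusted p = 2.29e-09) and -2.35 ± 0.23 (adjusted p = 2.37e-09).

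Ifit3 held 53.3, 44, 39.3 and 32 CPM in baseline, 81.1, 52.4, 45.3 and 40.3 in early and 11.9, 65.8, 17.8 and 35.6 in advanced monocytes. The peritoneal values were 1.35, 1.30, 3.43 and 0.908 at baseline, 18.9, 4.69, 0.762 and 1.06 in early and 1.64, 7.20, 3.81 and 4.52 in advanced macrophages. The groups did not overlap at any stage, and early 1 was the highest peritoneal library. Rsad2 (chr12:26442746-26456452), the antiviral radical SAM enzyme viperin, held 107, 87, 128 and 93.7 CPM in baseline monocytes and 6.77, 4.22, 14.7 and 2.24 in baseline peritoneal macrophages. In early libraries it held 135, 53.4, 77.4 and 51.8 CPM in monocytes and 19.9, 11.3, 6.09 and 4.77 in the peritoneum, and in advanced libraries 37.7, 103, 52.2 and 71.2 in monocytes against 6.56, 45.6, 13.1 and 11.8 in the peritoneum. Rsad2 overlapped between the populations only in the advanced groups, through peritoneal advanced 2, and differed by -2.66 ± 0.29 (adjusted p = 1.54e-08) over the stages.

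Isg15 (chr4:156199424-156200818), the ubiquitin-like modifier, was low in both populations. It stood at 8.47, 6.92, 11.1 and 6.51 CPM in baseline monocytes, 18.1, 11.8, 8.19 and 10.2 in early and 16.5, 7.42, 5.93 and 13.8 in advanced. Peritoneal macrophages held 0.677, 0.324, 1.27 and 1.26 CPM at baseline, 9.71, 3.13, 0 and 2.12 in early and 2.19, 4.80, 1.63 and 1.36 in advanced libraries. Its difference was -2.12 ± 0.32 (adjusted p = 2.33e-06), and only in early libraries did the 2 populations overlap. Usp18, which removes ISG15 and dampens the interferon receptor, was lower, at -1.51 ± 0.24 (adjusted p = 4.98e-06). In the oligoadenylate synthetase family, which includes sensors of double-stranded RNA that activate RNase L, 4 of 5 were lower. Oasl1 differed most at -2.47 ± 0.35 (adjusted p = 9.83e-07), while Oas2 at -0.26 ± 0.18 did not pass (adjusted p = 0.2).

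All 4 transcription factors were lower in the peritoneum, with log2 differences of -0.92 to -1.81. Irf7 (chr7:141262706-141266481), which amplifies type I interferon production, stood at 309, 319, 329.7 and 168 CPM in baseline monocytes and 45.8, 31.7, 72.6 and 20.1 in baseline peritoneal macrophages. Early libraries held 328, 301, 257 and 244 in monocytes and 125, 32.4, 40.4 and 45 in the peritoneum, and advanced libraries 132, 237, 152 and 184 in monocytes against 55.2, 165, 55.5 and 61 in the peritoneum. The populations did not overlap at baseline or in early libraries, but peritoneal advanced 2 lay among the advanced monocytes. Irf7 differed by -1.81 ± 0.22 (adjusted p = 8.90e-08). The 4 nucleic acid sensors were lower too, from Ddx58 (RIG-I) at -0.75 to Zbp1, which recognises Z-form nucleic acids, at -1.85. So were both Mx GTPases (-1.32 and -1.91) and the 5 nucleotide and RNA enzymes. Of these, Samhd1 spanned 1496 to 2345 CPM over 12 monocyte libraries and 298 to 763 CPM over 12 peritoneal ones (-1.96 ± 0.11, adjusted p = 1.30e-13). The membrane proteins Bst2 (tetherin) and Ifitm3 differed least among those called lower, at -0.48 and -0.57.

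Guanylate-binding proteins are large GTPases that attack pathogen-containing vacuoles and are induced strongly by interferon gamma. Of the 3 members that encode them, 2 were higher in the peritoneum. Reads shared between near-identical copies make their levels uncertain, as given above. Gbp7 (chr3:142530342-142550149) held 71.3, 71.5, 89.8 and 48.6 CPM in baseline monocytes and 117, 104, 163 and 109 in baseline peritoneal macrophages. Early monocytes held 64.5, 94.9, 76.2 and 72.6 against 174, 124, 99 and 112 in early peritoneal macrophages, and advanced monocytes 119.8, 85.9, 61.7 and 48.7 against 99.98, 154, 149 and 84.6. Every peritoneal library exceeded every monocyte library at baseline and early, with overlap in the advanced groups, and Gbp7 was higher by 0.92 ± 0.13 (adjusted p = 8.95e-07). Gbp3 (chr3:142560026-142573209), its neighbour on chromosome 3, was higher by 0.59 ± 0.11 (adjusted p = 6.20e-05), and Gbp2 at -0.24 ± 0.16 did not pass (adjusted p = 0.183). Rtp4, a Golgi chaperone of membrane receptors, was the remaining member not called, at -0.11 ± 0.20 (adjusted p = 0.648).

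**Figure D2:**
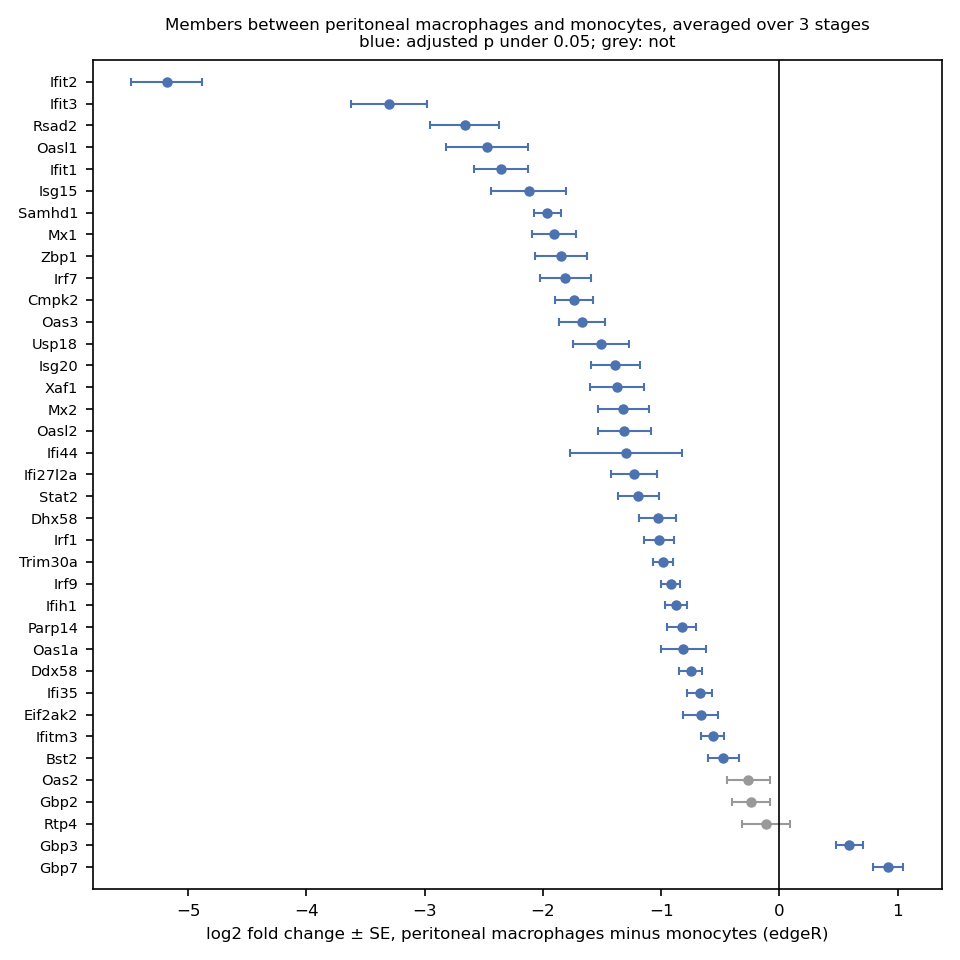
Log2 fold change of each of the 37 members between peritoneal macrophages and monocytes, averaged over 3 stages, with bars for 1 SE (edgeR, 24 libraries). Points left of 0 are lower in the peritoneum, and Gbp3 and Gbp7 are the 2 members called higher.

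Stage by stage, 32, 29 and 21 of 37 members were called lower in the peritoneum at baseline, early and advanced, where 28.1%, 21.0% and 25.1% of all genes were, and Gbp3 and Gbp7 were higher at each (26.0%, 22.2% and 23.8% of all genes). Member medians were -1.59, -1.25 and -0.74. A fit pairing libraries of the same number called 33, 31 and 28 lower, beside 28.4%, 21.4% and 24.8% of all genes. Limma-voom with quality weights called 33, 33 and 29, beside 36.2%, 23.7% and 27.5%. Other alternatives called 20 to 24 lower at the advanced stage, beside 14.3% to 24.7%. How far the count fell by stage thus depended on the fit. For 14 members, all lower, no peritoneal library reached any monocyte library at any stage, beside 15.4% of genes kept by the filter that were lower and 8.89% that were higher: Irf1, Irf9, Ifih1, Zbp1, Ifit1, Ifit2, Ifit3, Oas3, Cmpk2, Samhd1, Ifi35, Xaf1, Parp14 and Trim30a.

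Whether the response to diet differed between peritoneal macrophages and monocytes was tested as an interaction. No member passed for any pair of stages in the main fit, which did not pair libraries by number. For advanced against baseline 0 of 37 passed, beside 0.609% of all genes higher and 1.69% lower, and for early against baseline 0 of 37, beside 2.27% and 0.512%. For advanced against early it was again 0 of 37, beside 0.28% and 0.967%. At an unadjusted p under 0.05 there were 11, 4 and 7 of 37 members, respectively, beside 13.9%, 15.9% and 16.1% of all genes. For advanced against baseline, 34 of 37 estimates were positive (a higher peritoneal than monocyte response), beside 55.2% of all genes. Their median was 0.60 against 0.05 over all genes. The members moved together between libraries, so this is not a count of independent estimates. Irf7 came nearest at 1.71 ± 0.52 (adjusted p = 0.0903). Alternatives differed here: DESeq2, limma-voom with quality weights and a fit without the filter on low counts each called it, 1 member in all. A replicate block, which pairs libraries of the same number, called 2 (Irf7 and Rsad2, both adjusted p = 0.0189), beside 0.493% of all genes higher and 1.33% lower. The members tracked that number in both populations, as described below. The same 2 were called without peritoneal baseline 3. For early against baseline, DESeq2 called 0, Ifit2 was called without any 1 of peritoneal early 1, 3 or 4, and Samhd1 also without early 3. Each of those fits kept early 2, a library that stood apart. It held 13.3 CPM of Ifit2, beside 0 to 1.06 in the rest of its group. The share of all genes called without 1 library is not given. For advanced against early, Bst2 was called by DESeq2 and without peritoneal early 1.

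Aortic macrophages varied most between libraries. At each of 3 stages, 7 members had every aortic library below every monocyte library and none had every one above, beside 5.32% lower and 3.3% higher of the genes kept by the filter on low counts. Without the libraries that stood apart, 11 were below and none above, beside 7.8% and 5.66% of those genes. The 7 were Irf7, Zbp1, Oas1a, Oas3, Cmpk2, Samhd1 and Ifitm3. At single stages some members did lie wholly above monocytes: Gbp7 at baseline and early, Ifit1 at early and advanced, and Irf1 and Bst2 at advanced. More members lay below than above at each stage, and the share of all genes at single stages is not given. Ifit1 averaged 94.3 CPM over 12 aortic and 43.8 CPM over 12 monocyte libraries. Oas3 held 241, 261, 273 and 152 CPM in baseline monocytes and 31.1, 27.6, 0 and 47 in baseline aortic macrophages. Early monocytes held 201, 164, 242 and 197 against 13.2, 54.1, 2.28 and 9.02 in early aortic macrophages, and advanced monocytes 221, 252, 184 and 200.5 against 8.39, 51.3, 30.0 and 30.0. The aortic values never passed 54.1 CPM and the lowest monocyte value was 152 CPM. Irf7 in the aorta stood at 57.4, 92, 92.4 and 41.4 CPM at baseline, 70.1, 103, 25.9 and 54.6 in early and 41.9, 62.1, 72.4 and 73.3 in advanced libraries, below the monocyte values above. Samhd1 in the aorta ranged from 349 to 781 CPM.

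Between aortic and peritoneal macrophages, no member kept the 2 populations apart at all 3 stages in either direction, beside 3.05% higher and 3.15% lower of the genes kept. Without the libraries that stood apart the count was 5 higher and 1 lower, beside 7.78% and 5.82% of the genes kept, and without 1 library at a time it was 1 without aortic baseline 1, aortic early 2 or peritoneal early 1, 2 without aortic baseline 3 and 0 otherwise. Averaged over stages, edgeR called 13 members higher and 3 lower in aortic than in peritoneal macrophages (14.9% and 11.9% of all genes), and 1 higher and 16 lower than in monocytes (14.1% and 15.7% of all genes). Its single higher member against monocytes was Gbp7 at 1.24 ± 0.17 (adjusted p = 1.83e-06). These fits give 1 spread to populations whose spreads differ widely, and such a fit gave mostly false calls in earlier simulated counts. Their calls and p-values are therefore given only as an alternative to the overlap count. Immediate-early and heat shock genes, 13 in all and detected in every group, summed to 5659 to 30790 CPM over aortic libraries, beside 1135 to 4105 over monocyte and 673 to 5726 over peritoneal ones. Their part in the aortic values was not tested. IFIT genes showed the unevenness of the aortic libraries: Ifit2 held 0, 41.3, 1.70 and 479 CPM at baseline, 82.3, 118, 80.6 and 67.1 in early and 38.2, 48.5, 30.0 and 31.2 in advanced aortas. Baseline 4, at 479 CPM, was the library with 315 of the 415 Ifnb1 counts, and baseline 1 had no Ifit2 count. Ifit3 held 10.5, 6.48, 34.9 and 0 CPM at baseline, 23.9, 60.2, 10.3 and 0.501 in early and 24.2, 29.4, 15.4 and 29.2 in advanced aortas, with baseline 4 at 0 for Ifit3 and highest for Ifit2. Isg15 was at 0 in 3 of 4 baseline aortas and at 10.5 CPM in baseline 1, and it held 24.4, 3.05, 19 and 46.6 in early and 54, 11.2, 18.3 and 12.2 in advanced aortas.

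Stage moved few members in monocytes. Between baseline and early, 3 of 37 rose and none fell, beside 5.74% higher and 5.07% lower of 9465 genes, a share near that background. Ifi27l2a (chr12:103442167-103443680) rose most, from 101, 88.9, 96.9 and 75.8 CPM to 260.0, 186, 171 and 167. The groups did not overlap, and the log2 fold change was 1.14 ± 0.18 (adjusted p = 0.0011). Bst2 (chr8:71534255-71537456), which tethers budding virions to the cell surface, rose from 43.1, 35.1, 47.9 and 24 to 95.7, 95.9, 57.3 and 50.9 CPM. Its groups did not overlap either (1.03 ± 0.22, adjusted p = 0.00843). Rtp4 rose from 90.6, 93.5, 101 and 56.6 to 161, 126, 107 and 108 CPM (0.59 ± 0.17, adjusted p = 0.0337), a call lost in 5 of 8 fits that each dropped 1 library (baseline 1, 2, 4, early 1, 2; largest adjusted p = 0.127) and with equal depth (0.153).

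From early to advanced, Bst2 was the 1 member called, and it fell back to 29.8, 45.6, 29.7 and 38.5 CPM (-1.07 ± 0.25, adjusted p = 0.0354), beside 0.676% of all genes higher and 1.37% lower. Its groups did not overlap. The call was lost without early 1 or 2 or any 1 of the 4 advanced libraries (adjusted p up to 0.125). Comparisons with a shared group are not independent: the early libraries serve both changes of Bst2.

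Advanced against baseline monocytes gave 1 member higher and 3 lower, beside 9.24% and 9.75% of all genes. Ifi27l2a stood at 164, 259, 117 and 184 CPM in advanced monocytes, all above baseline (1.02 ± 0.18, adjusted p = 0.00142). Both Ifi27l2a changes held when every library was thinned to the depth of the shallowest, at 1.19 (adjusted p = 0.00314) for early and 1.04 (adjusted p = 0.00437) for advanced. At equal depth Stat2 was called too (-0.76, adjusted p = 0.00811), but Irf7 (-0.56, adjusted p = 0.0537) and Mx1 (-0.44, adjusted p = 0.163) were not. The 3 that fell were Stat2, Irf7 and Mx1. Stat2 (chr10:128270559-128292849), a subunit of the interferon-activated complex, went from 158, 197, 202 and 92.6 to 97.3, 111, 72.4 and 109 CPM (-0.69 ± 0.19, adjusted p = 0.0212). Irf7 changed by -0.64 ± 0.18 (adjusted p = 0.0252) and Mx1 (chr16:97447035-97462907), an antiviral GTPase, by -0.55 ± 0.17 (adjusted p = 0.0384). Baseline 4 was low for all 3 and lay among the advanced libraries. Without advanced 3, the library with the most neutrophil markers, only Ifi27l2a was called, at 1.17 (adjusted p = 0.000752), and Stat2, Irf7 and Mx1 had adjusted p of 0.0732, 0.0709 and 0.0900. The call of Stat2 was also lost without baseline 2 or 3, and those of Irf7 and Mx1 without any 1 of baseline 1, 2 or 3 or advanced 1 (adjusted p up to 0.0734 and 0.111).

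Markers of other cells moved with stage in the monocyte libraries. Summed over 8 genes, all detected, neutrophil markers stood at 485 to 1052 CPM at baseline, 3984 to 14445 in early and 5218 to 40250 in advanced monocytes. The 10 nonclassical monocyte markers stood at 4880 to 6732 CPM, 3921 to 4525 and 2319 to 4217 in the same order. Of these, 5 of 10 were called lower in advanced than in baseline monocytes, beside 9.75% of all genes lower and 9.24% higher. Plasmacytoid dendritic cell markers reached 531 CPM in early 2 and 106 to 237 in the other 11 monocyte libraries, and 2 of those 7, Cox6a2 and Pacsin1, were at 0 in advanced monocytes. T or NK cell markers (8 genes) summed to 15.5 to 45.6 CPM at baseline, 59.2 to 1047 in early and 19.6 to 39.2 in advanced monocytes, and B cell markers (6 genes) to 14.7 to 46.6, 35.9 to 145.0 and 11.3 to 22.5 CPM. Their part in the changes of the members was not tested.

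In peritoneal macrophages 33 members passed the filter on low counts, which Ifit2, Ifit3, Isg15 and Oasl1 did not. Early against baseline gave 1 member called, Ifi27l2a, beside 1.37% of 9575 genes higher and 0.418% lower. It went from 32.8, 15.7, 37.3 and 13.1 CPM to 184, 109, 36.6 and 46.1 (1.97 ± 0.41, adjusted p = 0.0334). Early 1 and 2 were the highest and early 3 lay within the baseline range. Without those 2 libraries, which stood apart, the change was 0.88 (adjusted p = 0.378), and the call was lost when any baseline library, early 1 or early 2 was dropped (largest adjusted p = 0.121).

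Between baseline and advanced peritoneal macrophages most estimates lay above 0 and none was called. None of 33 passed, beside 0.512% of all genes higher and 0.386% lower, and 11 had an unadjusted p under 0.05, beside 15.4% of all genes. Estimates were positive for 30 of 33, beside 50.7% of all genes, with a median of 0.49 against 0.01 over all genes. The members moved together between libraries, so this is not a count of independent estimates. Advanced 2 was the highest of its group for 31 of 33 and baseline 4 the lowest for 28. Ifi27l2a reached 57.4, 89.4, 62.6 and 72.8 CPM in advanced macrophages, every library above baseline (1.61 ± 0.42, adjusted p = 0.0791). Ifi44, an interferon-induced cytoplasmic protein, went from 2.20, 1.08, 2.45 and 0.0699 to 3.28, 49.8, 8.71 and 9.95 CPM without overlap (3.69 ± 1.01, adjusted p = 0.0944). Bst2 went from 23.1, 20.4, 30.7 and 20.3 to 33.3, 36.6, 25.6 and 35.3 CPM with overlap, after 45.2, 29.3, 22.1 and 28.1 in early macrophages. DESeq2 and the fit without a filter called 1 member higher, Ifi27l2a, where they called 2.75% and 0.349% of all genes higher. Voom with quality weights called 6 higher (with Ifi44, Bst2, Rtp4, Ifih1 and Trim30a), beside 9.43% of all genes. The fit without early 1 and 2 called 3 higher (Ifi27l2a, Ifi44 and Bst2), beside 5.76% of all genes. Advanced against early gave 0 of 33, beside 0.522% and 0.804% of all genes, with 4 members at an unadjusted p under 0.05 beside 19.4% of all genes, 0 called by DESeq2 and Irf1 nearest at 0.74 ± 0.27 (adjusted p = 0.164).

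In aortic macrophages edgeR called 0 of 37 members in each of 3 stage comparisons. The background was 0.312% higher and 0.0605% lower of 9920 genes for early against baseline, 0.534% and 0.0504% for advanced against baseline, and 0.0302% and 0.0101% for advanced against early. Members at an unadjusted p under 0.05 numbered 4, 5 and 2 of 37 in that order, shares near the 10.2%, 8.83% and 3.57% of all genes. DESeq2 called 2 higher (Ifi27l2a and Rtp4), 1 higher (Ifi27l2a) and 0, beside 2.37%, 2.44% and 0.151% of all genes higher by that tool. Ifi27l2a came nearest, from 48, 79.3, 43.2 and 55 CPM at baseline to 313, 133, 146 and 176 in early and 292, 119.9, 129 and 179.9 in advanced aortas. Neither later group overlapped baseline, and the changes were 1.90 ± 0.44 (adjusted p = 0.0661) and 1.78 ± 0.44 (adjusted p = 0.0718). Without baseline 4 they were 1.93 (adjusted p = 0.0271) and 1.81 (adjusted p = 0.0318). Rtp4 went from 45.9, 30.4, 8.71 and 4.50 to 92, 121, 123 and 64.1 CPM without overlap, and then to 28.9, 62.5, 37.5 and 79.4, which overlapped baseline. Bst2 stood at 75.6, 33.1, 45.1 and 0.214 CPM at baseline, 48.3, 54.9, 81.8 and 14 in early and 82, 46.2, 49.9 and 72.9 in advanced aortas, overlapping throughout. Immediate-early and heat shock genes summed to 5659 to 14369 CPM at baseline, 17409 to 30790 in early and 14568 to 20450 in advanced aortas, and fibroblast markers to 50.5 to 454, 604 to 1253 and 274 to 484 CPM. Their part in these values was not tested.

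Side by side, Ifi27l2a was the member whose later libraries most often cleared baseline: in early and advanced monocytes, early and advanced aortas and advanced peritoneal macrophages, with overlap in early peritoneal macrophages. Early and advanced share the baseline libraries of their population, and all baseline libraries were sequenced deeper than all others. The 5 log2 differences without overlap ran from 1.02 to 1.90. Interaction tests between monocytes and peritoneal macrophages did not call Ifi27l2a (0.85 ± 0.47, adjusted p = 0.396 for early and 0.60 ± 0.48, adjusted p = 0.654 for advanced).

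**Figure D3:**
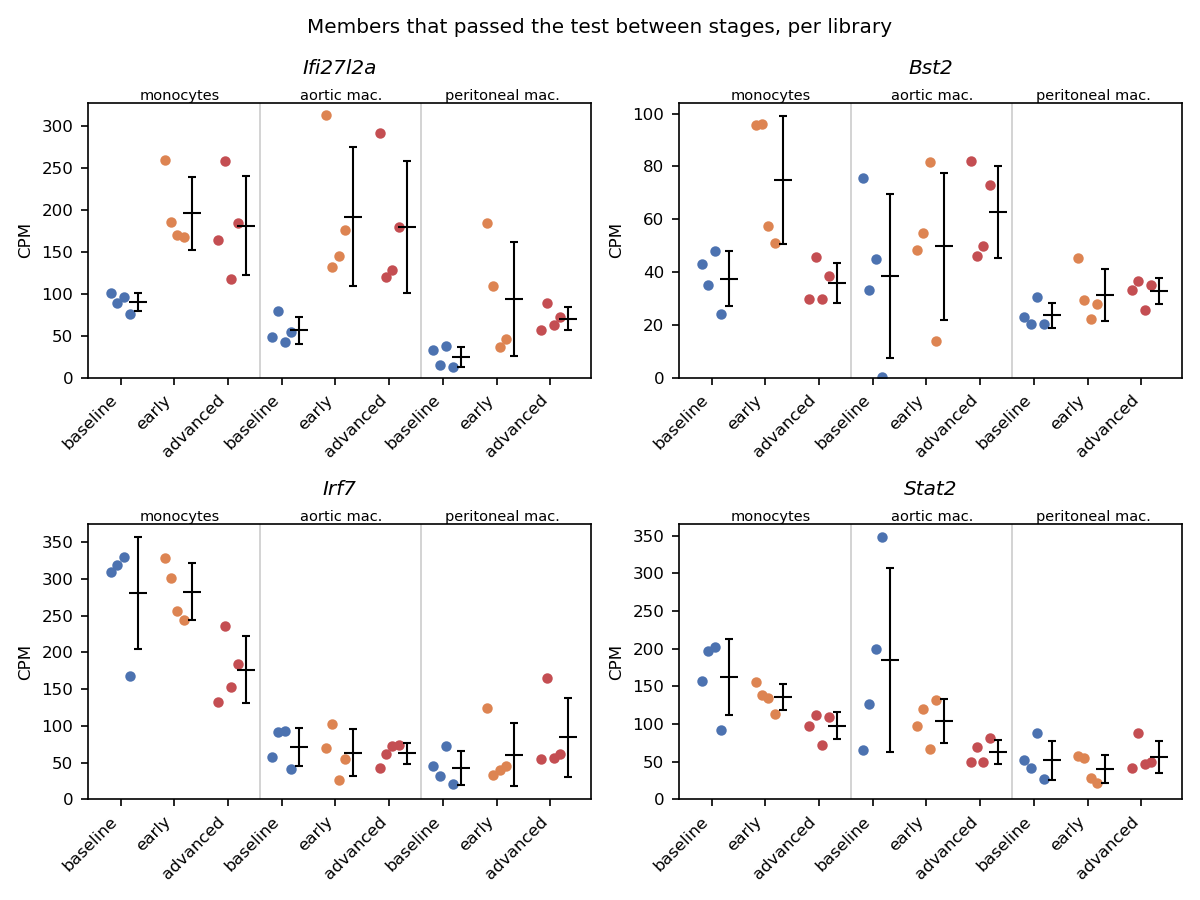
CPM of Ifi27l2a, Bst2, Irf7 and Stat2 in each of 36 libraries, by population and stage, with bars for the group mean and SD over 4 libraries. The group mean of Ifi27l2a is lowest at baseline in each population, and that of Irf7 is highest in baseline and early monocytes.

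Within groups, the members went up and down together between libraries of the peritoneum and, less so, of monocytes. As a description over 12 libraries per population, the median pairwise correlation of deviations from group means was 0.77 over the 33 members tested in the peritoneum (528 pairs, 98.7% positive) and 0.54 over 37 in monocytes (666 pairs, 94.9% positive). In the aorta it was 0.00 over 37, with 50% of pairs positive. Over all genes tested it was 0.06, 0.04 and 0.07. All pairs share libraries, and so depth and composition. In the peritoneum, baseline 3 was the highest of its group for 33 of 33 members, early 1 for 28 and advanced 2 for 31, where those libraries were highest for 33%, 34.4% and 35.2% of all genes tested. Baseline 4 was the lowest for 28 members, and for 52.1% of all genes. Irf7 shows the size of the spread, at 72.6 CPM in baseline 3 against 20.1 in baseline 4, and at 165 CPM in advanced 2 against 55.2 to 61.0 in the other 3. Of large peritoneal macrophage markers, baseline 3 held 19609 CPM, the lowest of its group, and advanced 2 held 18905 CPM, the highest of its group. Their part in the members' levels was not tested. In monocytes, baseline 4 was the lowest for 34 of 37 members and for 48.2% of all genes, and advanced 2 the highest for 25 members and for 35.7% of all genes. Baseline 3 (23 of 37 members) and early 1 (20 of 37) were also most often the highest monocyte libraries, beside 32.1% and 25.4% of all genes, so libraries of the same number were high or low in both populations.

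Rn45s, the ribosomal RNA precursor, ran opposite to the members in most of these libraries. It took 9.40% of the counts in peritoneal baseline 3, the lowest of its group, and 17.5% in baseline 4, beside at most 10.6% in the other 3. In peritoneal advanced 2 it took 12.7%, again the lowest of its group, and in early 1 it took 12.9%, between the 12.8% and 15.97% that bound its group. In monocytes it was highest in baseline 4 (11.04%) within its group and lowest in early 1 (12.1%) and advanced 2 (6.50%, beside 12.5% to 13.9% in the other 3). Its part in the members' levels was not tested.

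**Figure D4:**
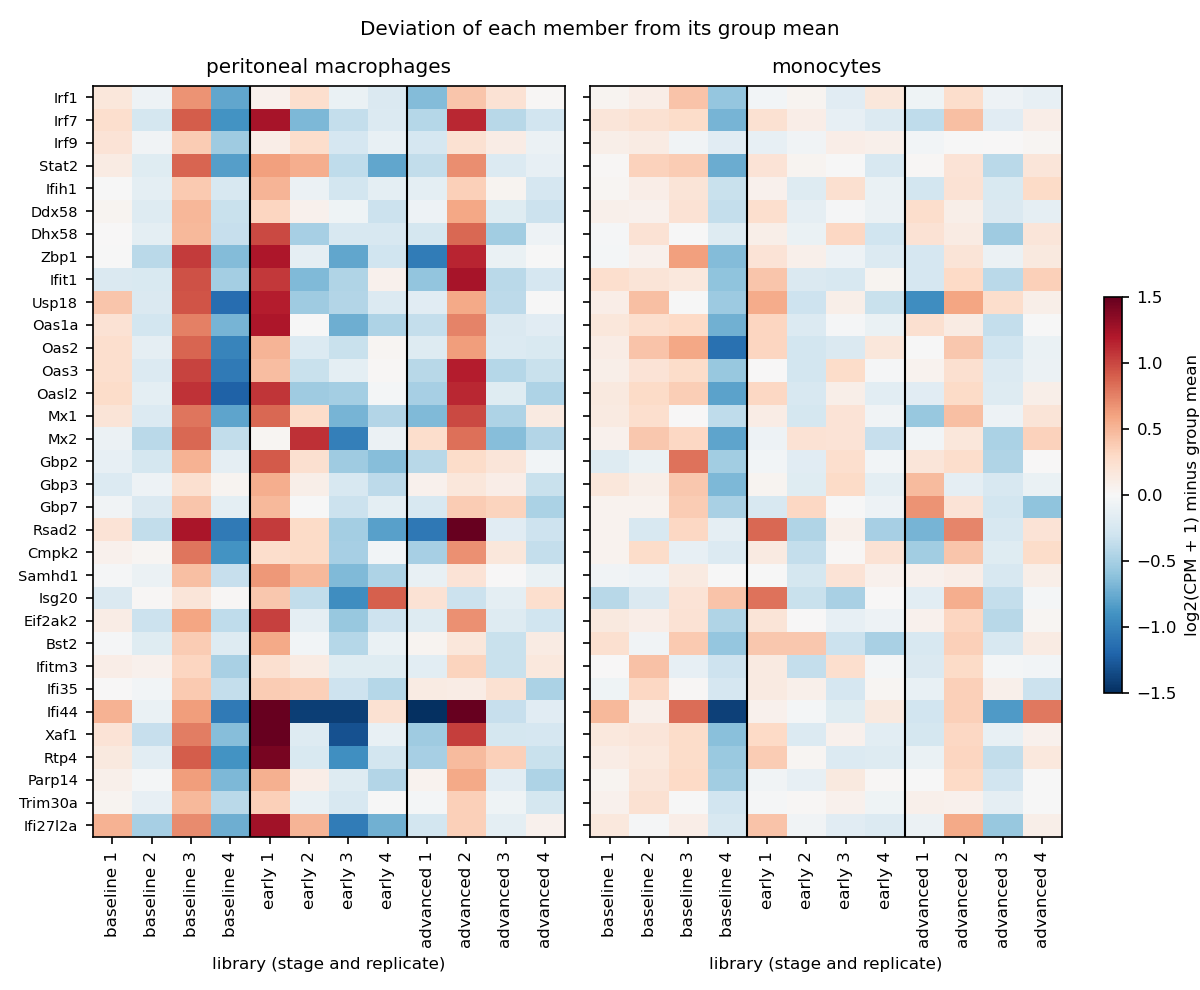
Deviation of each member from its group mean in log2(CPM + 1), 33 members tested in peritoneal macrophages and the same in monocytes, 1 column per library, with values past the ends of the colour scale drawn at its ends. Whole columns share a sign in the peritoneum, with baseline 3, early 1 and advanced 2 high and baseline 4 low.

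The rest of the pathway was read from lists of 18 receptor and signalling genes, 16 nucleic acid sensing genes and 77 other interferon-induced genes in the files. Against monocytes, peritoneal macrophages had 12 of 16 tested receptor and signalling genes lower and 4 higher, 12 of 16 sensing genes lower and 2 higher, and 58 of 76 other induced genes lower and 9 higher, with medians of -0.65, -0.61 and -0.81. Of all 10343 genes tested, 34.6% were lower and 32.5% higher, with a median of -0.02. Ifngr1 and Ifngr2, the interferon gamma receptor, were lower, at -2.01 ± 0.11 and -1.58 ± 0.10. Irf5, which drives inflammatory cytokines, and the phosphatase Ptpn6 were lower, at -1.24 and -0.97. Among sensors, the endosomal receptors Tlr7 and Tlr9 (-1.38 and -5.56) and their adaptor Myd88 (-1.29) were lower, and Tlr3, the receptor for double-stranded RNA, was higher by 2.17. Of the other induced genes, Ms4a4c, Slfn2 and Epsti1 were lower, at -6.85, -1.29 and -1.79, and Ifi27 was higher by 3.06.

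The upstream genes called between stages in monocytes all fell. Advanced against baseline, 4 of 16 receptor and signalling genes and 2 of 16 sensing genes fell and none rose, beside 9.75% of all genes lower and 9.24% higher, so the sensing count is near that background. They were the kinase Tyk2 (-0.62 ± 0.11, adjusted p = 0.00115), the receptor subunit Ifnar1 (-0.45), Irf5 (-0.70), Irf8 (-0.79), Tlr9 and its chaperone Unc93b1 (-0.61). Tlr9, the endosomal receptor for CpG DNA, went from 215, 266, 241 and 209.8 CPM at baseline to 121, 119, 156 and 132 in early and 103, 123, 101 and 106 in advanced monocytes. Neither later group overlapped baseline, at -0.80 ± 0.10 (adjusted p = 0.000469) and -1.06 ± 0.11 (adjusted p = 9.78e-05). Of 76 other induced genes, 5 rose and 4 fell, shares below those of all genes. Those with the smallest adjusted p were Helz2 (-0.68), Casp4 (0.47), Uba7 (-0.58) and Pml (-0.74). Early against baseline, Tlr9, Irf5 (-0.55) and Tyk2 (-0.34) fell, and Ms4a4b (1.70), Gbp4 (1.75) and the immunoproteasome subunit Psmb9 (0.83) rose while Ifitm2 fell (-0.49). These counts, 0 higher and 2 lower of 16, 0 and 1 of 16, and 3 and 1 of 76, stand beside 5.74% higher and 5.07% lower of all genes. The lymphocyte markers given above reached their highest values in the same early group, and their part in these changes was not tested. In peritoneal macrophages, Trim25, the ligase that activates RIG-I, rose by 0.78 ± 0.15 (adjusted p = 0.0279) in advanced against baseline. Tlr7 rose by 0.60 from early to advanced, and Tnfsf10 (TRAIL) fell by 1.21 on the log2 scale in early and rose by 1.44 from early to advanced. In the aorta, 0 of the genes tested in these lists were called between stages.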

How the data were processed

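RNA was counted per gene in 36 libraries of FACS-sorted cells, made with the Ovation SoLo kit and sequenced paired-end on a NextSeq500, per the labels. The deposited values are whole-number counts per gene, and the submitters' processing notes name STAR, featureCounts and mm10. The strand setting, annotation and handling of shared reads are not given in the sources used here. CPM was computed from each library's total count. Totals of 0.943 to 14.8 M limit the precision of low genes. Pooled levels that 0 counts allow use 3 counts.

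Stages were compared within each population (12 libraries) and peritoneal macrophages with monocytes (24 libraries) by edgeR 4.0.16 in R 4.3.3: TMM scaling, filterByExpr, the quasi-likelihood test, two-sided, adjusted p under 0.05 over all genes tested. Aortic libraries were compared with the others by whether log2(CPM + 1) overlapped at each of 3 stages, since their spread was large. An edgeR fit with 1 spread over both populations gave mostly false calls in earlier simulated counts, so those calls are only an alternative. Alternatives were DESeq2 1.42.0, its size factors in edgeR, no filter, limma 3.58.1 voom with quality weights, a replicate block, thinning to equal depth, leaving out the libraries that stood apart and each library in turn. The tests within populations and between peritoneal macrophages and monocytes were also tried on simulated counts. The fits that joined aortic with other libraries were not tried again.

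The members and lists were chosen with earlier results of these data known. Members past the threshold are named, at most 8 per stage comparison by p and 6 per direction between populations by size, with up to 4 given per library. Pathway lists name at most 4 genes per comparison by adjusted p, and Irf7, Isg15, Ifit3 and Bst2 are given in any case. A further gene of that rule is not reported here. Other genes named (such as Rtp4, Oas3, Ifi44, Tlr9 by library) were chosen after their values were seen. Gene positions and exon lengths are from GENCODE M21 and promoters from RefSeq.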

Additional observations from a re-analysis of the deposited data

Results flagged for a closer look

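Within groups of 4 libraries, 1 library lay far from the others in 18 of 135 group values checked (15 measures in 9 groups). The cutoff gives about 1 in 20 for independent values of normal spread. Members moved together between libraries and several lay near 0 CPM, so these 18 are not set against that rate. In aortic baseline libraries, Ifit2 stood at 479.1 CPM in library 4 with the others at 0 to 41.3, and Isg15 at 10.5 CPM in library 1 with the others at 0. Aortic early 3 held 1.14 CPM of Oasl1, beside 23.6 to 27.5 in the other 3. Aortic advanced 1 was the highest of its group for Gbp3 (113.7 CPM) and Isg15 (54.0 CPM).

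Monocyte baseline 4 was the lowest of its group for Ifit1 (27.0 CPM) and Irf7 (167.9 CPM). Gbp3 was highest in monocyte advanced 1, at 133.7 CPM.

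Most of these values fell in 4 peritoneal libraries. Baseline 3 was highest for Ifit1 at 10.4 CPM, and early 2 for Ifit2 at 13.3 CPM. Early 1 was highest for Irf7 (124.8 CPM), Oasl1 (10.7 CPM) and Rtp4 (197.7 CPM). Advanced 2 was highest for Ifit1 (25.8 CPM), Irf7 (165.0 CPM), Oasl1 (10.8 CPM), Rsad2 (45.6 CPM) and Stat2 (87.6 CPM).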

How the results depend on the processing

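Averaged over the 3 stages, members lower or higher in peritoneal macrophages than in monocytes numbered 33 to 35 under every alternative run. In those fits 22.9% to 34.7% of all genes were higher and 23% to 36.8% lower. At the advanced stage alone, 20 to 29 members were called lower. Without 1 library at a time the stage-averaged count was 34 to 35, and no direction reversed for any member named. Scaling by DESeq2's size factors moved the median of all genes by less than 0.1 on the log2 scale. Counts between stages were small and several moved. In the aorta, early against baseline gave 1 higher without the filter, 2 by DESeq2 and 1 at equal depth. Of all genes, 0.737%, 2.37% and 0.54% were higher in these fits. Advanced against baseline gave 1 higher by DESeq2 and 1 at equal depth, beside 2.44% and 1.06% of all genes. In monocytes, advanced against early gave 2 lower without the filter and 2 by DESeq2, beside 1.61% and 2.63% of all genes lower. It gave 0 by voom, under the replicate block and without the libraries that stood apart. There 0.338% to 0.697% of all genes were higher and 0.495% to 0.866% lower. Advanced against baseline gave 1 higher without those libraries, beside 5.76% of all genes higher and 6.42% lower. In the peritoneum, early against baseline gave 0 by voom, under the replicate block, at equal depth and without the libraries that stood apart. In those fits 0.397% to 2.81% of all genes were higher and 0.0522% to 1.18% lower. Advanced against baseline gave 1 without the filter, 1 by DESeq2, 6 by voom and 3 without the libraries that stood apart, all higher. Of all genes, 0.349%, 2.75%, 9.43% and 5.76% were higher in that order. Differences of response between peritoneum and monocytes gave 1 without the filter, by DESeq2 and by voom for advanced against baseline. The replicate block gave 2 there (Irf7 and Rsad2, both adjusted p = 0.0189), and DESeq2 gave 1 for advanced against early. All were higher, beside 0.315%, 1.25%, 1.91%, 0.493% and 1.1% of all genes higher in that order. Members without overlap between aorta and monocytes numbered 11 without the libraries that stood apart, beside 5.66% of genes higher and 7.8% lower. Between aorta and peritoneum they numbered 6, beside 7.78% higher and 5.82% lower, or 1 with TMM-scaled values. By edgeR averaged over stages, a different measure with mostly false calls in earlier simulated counts, 17 and 16 were called. The cause of these moves was not tested.

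Without 1 library at a time, counts ranged from 0 to 1, 0 to 0 and 0 to 1 in the aorta (early against baseline, advanced against early, advanced against baseline), from 2 to 4, 0 to 1 and 1 to 5 in monocytes and from 0 to 1, 0 to 0 and 0 to 0 in the peritoneum. They ranged from 0 to 2, 0 to 1 and 0 to 2 for the differences of response, from 7 to 9 for aorta against monocytes and from 0 to 2 for aorta against peritoneum. The share of all genes in each of these fits is not given, so the ranges describe the counts only. Replicate numbers were not taken as pairs in the main fits, since not every same-numbered pair correlated over 0.1. Over all genes the median correlation of deviations was -0.018 between stages (2 of 36 pairs over 0.1), 0.019 between populations (5 of 36) and 0.060 between monocytes and peritoneal macrophages of 1 stage (4 of 12, up to 0.275). The members did track the number in those 2 populations.

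Depth and stage cannot be told apart in comparisons with baseline, and low members such as Isg15 and Ifit2 rest on few counts in the shallow peritoneal libraries. The 110% spread between aortic libraries limits every test there.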
